A study of Homo sapiens with 24 samples.

Results

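A set of 133 probe sets reached most of its 24 to 72 h rise by 48 h in HT29 cultures, out of 49293 probe sets measured (0.27%). HT29 is an established human colorectal adenocarcinoma cell line. A probe set is a group of short probes for 1 transcript or transcript family, and its level is given on the log2 scale, on which a difference of 1 is a doubling. The members were chosen by their measured values. The mean of the 8 arrays of 72 h had to exceed that of 24 h by at least 0.585, the same difference had to be at least 0.3 in each replicate set alone, and the 48 h mean had to lie at least 65% of the way from the 24 h to the 72 h mean. Of the 675 probe sets that passed the limits on the rise, 133 (19.7%) passed the limit on the 48 h share and 542 did not. The members belong to 77 genes, 31 of them with more than 1 member, and 2 members carry no gene symbol in the annotation used here. Probe sets of 1 gene measure the same transcripts and are not independent.

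The series holds 24 arrays in 12 groups of 2. Cultures received VEGF at 100 ng/ml, PDGF at 100 ng/ml, the VEGF vehicle or the PDGF vehicle, and RNA was taken at 24, 48 and 72 h. All cultures, the vehicle ones included, were of the same line, seeded at the same number of cells and given 24 h to recover. The labels number the replicates 1 and 2 and place each number on a hybridisation day of its own, so each number is called a replicate set here. The labels do not say that replicates are separate cultures.

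Array medians lay between 7.05 and 7.13. Markers of an epithelial line were high, with mean levels of 13.26 for EPCAM, 13.57 for KRT8 and 14.31 for KRT18. CDX1 (6.88) and CDX2 (7.39), transcription factors of intestinal identity, lay near the array median, as did the VEGF receptor KDR (6.84) and the PDGF receptors PDGFRA (6.50) and PDGFRB (6.85). The mean over members was highest among the 48 h arrays of set 1 in the VEGF array, 9.89. The PDGF array there had 9.72 and the vehicle arrays 9.51 and 9.46, so both treated arrays lay above both vehicle arrays. Without the 48 h VEGF array of set 1 the rule kept 107 probe sets, of which 97 are among the 133. The 24 h VEGF vehicle array of set 1 stood apart with a mean of 8.69, against 8.94 to 8.98 in the other 24 h arrays of its set. Without that vehicle array the rule kept 120 probe sets, of which 119 are among the 133. The RNA integrity number, a quality score for RNA, was 8.8 to 9.6 (median 9.3) at 24 h, 9.4 to 9.8 (median 9.65) at 48 h and 9.2 to 9.9 (median 9.6) at 72 h. With that number and the replicate block in the fit, the median rise of the members from 24 to 72 h was 0.83, against 0.80 without them. From 24 to 48 h the median was 0.62 against 0.61, and the smallest rise 0.17 against 0.39. With the block alone, 133 members and 8596 of all 49293 probe sets had an adjusted p under 0.05 for 24 to 48 h (limma). Adding the number left 123 members and 2502 of all. The rule used this change, so the counts only describe.

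Many of the genes described here are known targets of the transcription factor ATF4. Cells that run short of amino acids, or whose endoplasmic reticulum is under load, slow general translation while ATF4 messenger RNA is translated more, and ATF4 then switches on genes for amino acid synthesis, amino acid import and tRNA charging. Other known regulators, the FOXO factors, act when insulin and growth factor signalling through AKT is low, and their targets include brakes on the cell cycle and parts of the autophagy machinery. Both arms meet at mTOR, the kinase that couples nutrient and growth factor supply to growth.

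The promoters of several members hold short sequences known to be bound by these factors. The stretches below are shown because each holds 1 such sequence in capitals, 5′ to 3′ on the gene's own strand, upstream of the start that RefSeq gives on GRCh38.p14. A total of 4 motifs was searched on both strands in windows from 250 bases before to 50 after each start.

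The core of the amino acid response element, read by ATF4 with a C/EBP partner, was searched as TGATGNAA. It is shown for ASNS (chr7:97872439-97872506, minus strand), AARS1 (chr16:70289656-70289723, minus strand), HERPUD1 (chr16:56931936-56932003, plus strand) and IL20RB (chr3:136957877-136957944, plus strand). The reverse complement appears as TTGCATCA.

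ASNS: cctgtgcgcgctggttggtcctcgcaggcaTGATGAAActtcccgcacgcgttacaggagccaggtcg
AARS1: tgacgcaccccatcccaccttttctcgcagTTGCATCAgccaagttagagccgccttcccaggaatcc
HERPUD1: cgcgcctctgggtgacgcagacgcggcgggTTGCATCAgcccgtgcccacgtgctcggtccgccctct
IL20RB: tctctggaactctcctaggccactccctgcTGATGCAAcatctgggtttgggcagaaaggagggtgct

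The forkhead site bound by FOXO and related factors was searched as TGTTTAC. It is shown for BTG1 (chr12:92146019-92146085, minus strand), CALCOCO2 (chr17:48830785-48830845, plus strand), GDF15 (chr19:18386032-18386098, plus strand) and HBP1 (chr7:107168800-107168866, plus strand). The reverse complement appears as GTAAACA.

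BTG1: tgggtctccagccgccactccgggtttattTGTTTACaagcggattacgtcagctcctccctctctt
CALCOCO2: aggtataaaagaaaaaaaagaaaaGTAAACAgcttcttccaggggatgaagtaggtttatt
GDF15: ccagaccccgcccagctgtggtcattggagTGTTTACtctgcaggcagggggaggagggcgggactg
HBP1: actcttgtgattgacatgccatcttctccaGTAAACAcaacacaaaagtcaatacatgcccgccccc

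RefSeq windows were found for 65 of the 77 genes, which have 97 windows between them. TGATGNAA was in 12 of the 97 member windows (12.37%), in 3.617% of all 35116 windows, in 2.691% of those of genes on the array and in 3.922% of those of genes that rose later. The 12 genes were AARS1, ASNS, CARS1, CYP2B6, GARS1, HERPUD1, IL20RB, JDP2, LRRC31, NCOA7, SLC1A4 and SLC3A2. TGTTTAC was in 11 member windows (11.34%), against 3.423% of all, 2.828% of those of array genes and 3.081% of those of later-rising genes. The 11 genes were BTG1, CALCOCO2, CARS1, CCDC28A, CREBL2, GDF15, HBP1, KLHDC2, SLC43A1, TSC22D3 and ULBP1, so CARS1 held both motifs, at separate places. The cAMP response element TGACGTCA was in 2 member windows (2.062%), against 1.848% of all, 2.318% of those of array genes and 2.241% of those of later-rising genes. The endoplasmic reticulum stress element, CCAAT and CCACG with 9 bases between them, was in 0 member windows, against 0.07689% of all. The motifs were chosen with the members known, and a match describes letters in a window, not a binding site.

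Across the members the rise from 24 to 72 h was 0.59 to 2.24 with a median of 0.80, and the rise by 48 h was 0.39 to 1.75 with a median of 0.61. The share of the rise reached by 48 h had a median of 0.744 and ran from 0.651 to 1.37, against a median of 0.469 among the 542 later probe sets. At 48 h, 5 members lay above their 72 h mean. The 8 arrays of 48 h all lay above the 8 arrays of 24 h for 92 of the 133 members, where 1.84% of all probe sets did so. The arrays of 72 h all lay above those of 24 h for 121 members (6.94% of all probe sets), and above those of 48 h for 7 members (1.57% of all). These time differences chose the members, so the counts are a description and carry no test. In the limma fit of the same difference from 24 to 72 h, 132 members had an adjusted p under 0.05 and DDIT4 had 0.102, where 26.8% of all probe sets were called. From 24 to 48 h 120 were called (8.74% of all) and from 48 to 72 h 24 (9.18% of all). The 24 to 48 h and the 48 to 72 h changes share the 48 h arrays. RNA of whole cultures was measured, so more cells with a transcript and more transcript per cell cannot be told apart.

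Among the roles, amino acid synthesis had the highest median rise over probe sets, and PSAT1 and ASNS account for 12 of its 17. The 6 genes of this role (17 probe sets) had a median rise of 1.16 and a median 48 h share of 0.885. ASNS makes asparagine and had the largest rise of all members, 2.24 (4.74-fold) for probe set 11748793_a_at. Its log2 level was 9.63 to 10.62 (median 9.79) at 24 h, 11.17 to 12.69 (median 11.73) at 48 h and 11.99 to 12.55 (median 12.30) at 72 h. The 24 and 48 h arrays did not overlap, while the 48 and 72 h arrays did. The 4 ASNS members had rises of 2.08 to 2.24 and shares of 0.775 to 0.781.

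PSAT1 and PSPH catalyse consecutive steps of serine synthesis. PSAT1 had the most members, 8, with rises of 0.90 to 1.18 and shares of 0.845 to 0.894. The member with the largest rise (11747349_s_at) went from 8.38 to 9.59 (median 9.02) at 24 h to 9.43 to 11.09 (median 9.91) at 48 h and 9.54 to 10.85 (median 10.19) at 72 h. The times overlapped over all 8 arrays, with set 1 above set 2 at every time: within set 1 the 24 h mean was 9.47 and the 48 h mean 10.58, within set 2 8.59 and 9.58. PSPH rose by 0.60 and was higher at 48 h (mean 9.36) than at 72 h (9.30). The brightest PSPH probe set, not a member, rose by 0.44. MTHFD2, a mitochondrial folate enzyme that uses serine-derived carbon, rose by 0.60 and also had its 48 h mean (11.72) above its 72 h mean (11.66). Its brightest probe set, not a member, rose by 0.48.

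CTH, which makes cysteine from cystathionine, lay at 7.30 to 8.04 (median 7.68) at 24 h, 8.51 to 9.66 (median 8.75) at 48 h and 8.81 to 9.34 (median 8.99) at 72 h. It had reached 0.906 of its rise of 1.31 by 48 h, with near-equal shares in set 1 (0.923) and set 2 (0.889). PCK2, the mitochondrial phosphoenolpyruvate carboxykinase, had the lowest share of this role. Its probe set 11719089_a_at went from a median of 8.10 at 24 h to 9.23 at 48 h and 9.74 at 72 h, a rise of 1.57 with a share of 0.687.

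Amino acid carriers and tRNA-charging enzymes had smaller rises. The 5 carriers (9 probe sets) had a median rise of 0.71 and a share of 0.759. SLC43A1, a leucine carrier, led with a rise of 0.91. SLC3A2, the chain that brings several amino acid exchangers to the cell surface, rose by 0.74, and its 24 h arrays (8.94 to 9.95) overlapped those of 48 h (9.54 to 10.95). Its brightest probe set, not a member, rose by 0.52. The neutral amino acid carriers SLC1A4 and SLC38A2 rose by 0.74 and 0.66. SLC3A1, the heavy subunit of the cystine carrier of kidney and gut, rose by 0.63 and was the 1 member with a share under 0.65 in set 1 (0.462), against 1.05 in set 2. Of the synthetases, CARS1 loads cysteine onto its tRNA and went from 9.42 to 9.92 (median 9.55) at 24 h to 10.12 to 11.06 (median 10.37) at 48 h and 10.49 to 10.76 (median 10.59) at 72 h. AARS1, for alanine, rose by 0.84 and GARS1, for glycine, by 0.62. The 7 probe sets of these synthetases had a median share of 0.856, and a median of 1.01 in set 1 against 0.754 in set 2.

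ATF4 itself was a member, with a rise of 0.66 (1.58-fold) and a share of 0.860. TRIB3, a pseudokinase that ATF4 induces and that restrains it, came next to ASNS with a rise of 1.70 for 11719811_a_at. Its level was 9.18 to 10.52 (median 9.55) at 24 h, 10.69 to 12.37 (median 11.12) at 48 h and 11.21 to 11.73 (median 11.40) at 72 h. The 24 h arrays fell into the replicate sets, at 9.77 to 10.52 in set 1 and 9.18 to 9.32 in set 2, and the sets had met by 72 h. The rise of TRIB3 was 1.22 in set 1 and 2.19 in set 2.

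NUPR1, a small chromatin protein induced by stress, rose by 1.66, from 6.92 to 7.69 (median 7.33) at 24 h to 7.76 to 9.79 (median 8.50) at 48 h and 8.40 to 9.57 (median 9.09) at 72 h. Its 24 and 48 h arrays did not overlap, though their edges lay close together. GDF15, a secreted stress cytokine, had medians of 9.93, 11.11 and 11.52 at the 3 times and a share of 0.976 in the means. Its share was 0.974 in set 1 and 0.978 in set 2. HERPUD1, an endoplasmic reticulum membrane protein of the degradation pathway, went from 9.05 to 9.49 at 24 h to 9.84 to 10.32 at 48 h and 10.27 to 10.53 at 72 h. JDP2, a repressor of the AP-1 family, rose by 0.60.

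**Figure D1:**
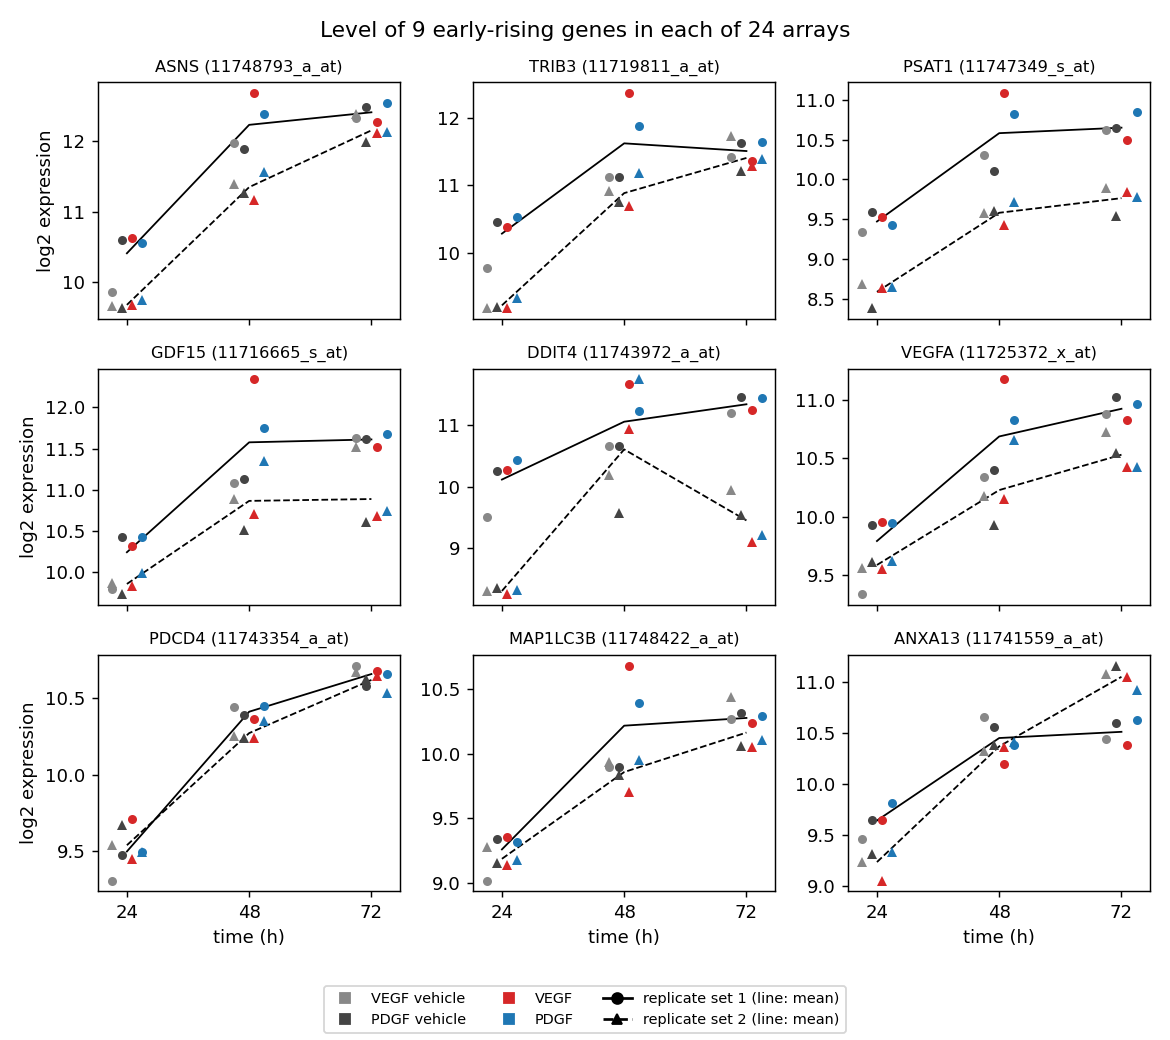
Log2 level (vertical axis) of 9 members against time in hours (horizontal axis) in each of the 24 arrays; colour marks the treatment, circles and triangles mark replicate sets 1 and 2, and lines join the means of the 4 arrays of a set. ASNS arrays of 48 h (11.17 to 12.69) all lie above those of 24 h (9.63 to 10.62), while the DDIT4 lines of the sets are apart at 24 h, closest at 48 h and apart again at 72 h.

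Members that restrain mTOR or translation formed the next group, 6 genes with a median rise of 1.10. DEPTOR is an inhibitory subunit of mTOR complexes. Its level was 7.40 to 7.94 at 24 h, 8.56 to 9.04 (median 8.72) at 48 h and 9.09 to 9.27 (median 9.17) at 72 h, with no overlap between any of the times. PDCD4, which blocks the translation helicase eIF4A, went from 9.31 to 9.71 (median 9.50) to 10.24 to 10.45 (median 10.36) and 10.54 to 10.71 (median 10.65), again with no overlap. GRB10, an adaptor that dampens insulin receptor and mTOR signalling, rose by 1.15, SESN2, a leucine sensor upstream of mTOR, by 0.92, and EIF4EBP1, a repressor of cap-dependent translation, by 0.59.

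DDIT4, which switches mTOR off under energy or oxygen stress, was the member with the highest share, 1.37, and the one whose shares differed most between sets. In set 1 its level was 9.51 to 10.42 at 24 h, 10.66 to 11.65 at 48 h and 11.20 to 11.45 at 72 h. In set 2 it was 8.26 to 8.36 at 24 h, 9.57 to 11.73 at 48 h and 9.10 to 9.95 at 72 h. In both sets all 72 h arrays were above all 24 h arrays. The highest mean was that of 72 h in set 1 (11.33) and that of 48 h in set 2 (10.60), and the share was 0.768 in set 1 and 2.01 in set 2. The 2 vehicle arrays of set 2 at 48 h had 10.18 and 9.57, and the VEGF and PDGF arrays 10.92 and 11.73.

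Genes of growth arrest and cell death had rises of 0.72 to 0.96. TSC22D3, a glucocorticoid-induced and FOXO-responsive regulator, was at 8.39 to 8.74 (median 8.51) at 24 h, 8.75 to 9.88 (median 9.17) at 48 h and 9.26 to 9.77 (median 9.49) at 72 h. BTG1, an antiproliferative factor, rose by 0.84 and BBC3, a pro-apoptotic BCL2 relative, by 0.85. TNFSF10, the death receptor ligand TRAIL, rose by 0.73 with shares of 0.667 and 0.662 in the sets. HBP1 represses cell cycle genes, and CCNG2 is a cyclin of arrested cells. HBP1 was at 8.95 to 9.21 in set 1 and 9.75 to 10.03 in set 2 at 24 h, and its rises were 1.13 and 0.56. CCNG2 rose by 1.16 in set 1 and by 0.34 in set 2, just past the limit of 0.3.

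Autophagy and protein turnover contributed 5 genes. MAP1LC3B, the protein that coats autophagosomes, had 3 members, and its leading one went from 9.02 to 9.36 (median 9.23) to 9.70 to 10.68 (median 9.92) and 10.05 to 10.44 (median 10.25). The autophagy receptors CALCOCO2 and NBR1 rose by 0.81 and 0.68, the ubiquitin ligase subunit FBXO32 by 0.83 and the ligase subunit KLHDC2 by 0.64. CALCOCO2 kept nearly the same share in set 1 (0.745) and set 2 (0.754).

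Among secreted signals and receptors, VEGFA, the gene of the vessel growth factor, had 3 members. Probe set 11725372_x_at was at 9.33 to 9.96 (median 9.62) at 24 h, 9.93 to 11.18 (median 10.37) at 48 h and 10.43 to 11.03 (median 10.78) at 72 h, a rise of 1.04 (2.05-fold). The 24 and 48 h arrays met at their edges. The receptor subunit IL20RB rose by 0.81 from a dim 24 h median of 6.59, with a share of 0.894. The tyrosine phosphatase PTPRH rose by 0.84, the thyroid hormone receptor THRA by 0.72 and the NKG2D ligand ULBP1 by 0.70.

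Epithelial and goblet cell products were few but included ANXA13, an annexin of intestinal epithelium. In set 1 it went from 9.45 to 9.81 at 24 h to 10.20 to 10.65 at 48 h and 10.38 to 10.63 at 72 h, and in set 2 from 9.05 to 9.33 to 10.32 to 10.40 and then 10.91 to 11.16. Set 1 thus levelled off after 48 h while set 2 kept rising, with rises of 0.87 and 1.82. SPINK4, a goblet cell secretory peptide, was at 7.61 to 8.04 (median 7.68) at 24 h, 7.96 to 8.69 (median 8.47) at 48 h and 8.56 to 8.79 (median 8.69) at 72 h. The tight-junction protein CLDN12 rose by 0.83 and the membrane mucin MUC20 by 0.65.

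Sugar and lipid metabolism was represented by 6 genes, led by HKDC1, a hexokinase of gut epithelium, with a rise of 0.95. CYP2B6 (0.77), DHRS3, which reduces retinaldehyde (0.76), GFPT1, the first enzyme of the hexosamine pathway (0.73), PMM1 (0.73) and MAOA (0.59) followed. Membrane traffic and scaffold genes were CLIC4 with a rise of 1.19, SYTL2 with 0.84, SNTB1 with 0.83, COG5 with 0.64 and SNAP23 with 0.61. Another 20 genes (24 probe sets) were given no role. YPEL5 led these, from 7.73 to 8.32 (median 8.10) to 8.79 to 9.22 (median 8.97) and 9.26 to 9.46 (median 9.39), with no overlap between times. LRRC31 (0.94) and the GTP-binding protein gene GTPBP2 (0.87) came next, and TUBE1, epsilon-tubulin, had its 48 h mean (9.47) level with that of 72 h (9.46). The unnamed probe set 11719162_a_at had a rise of 0.93.

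**Figure D2:**
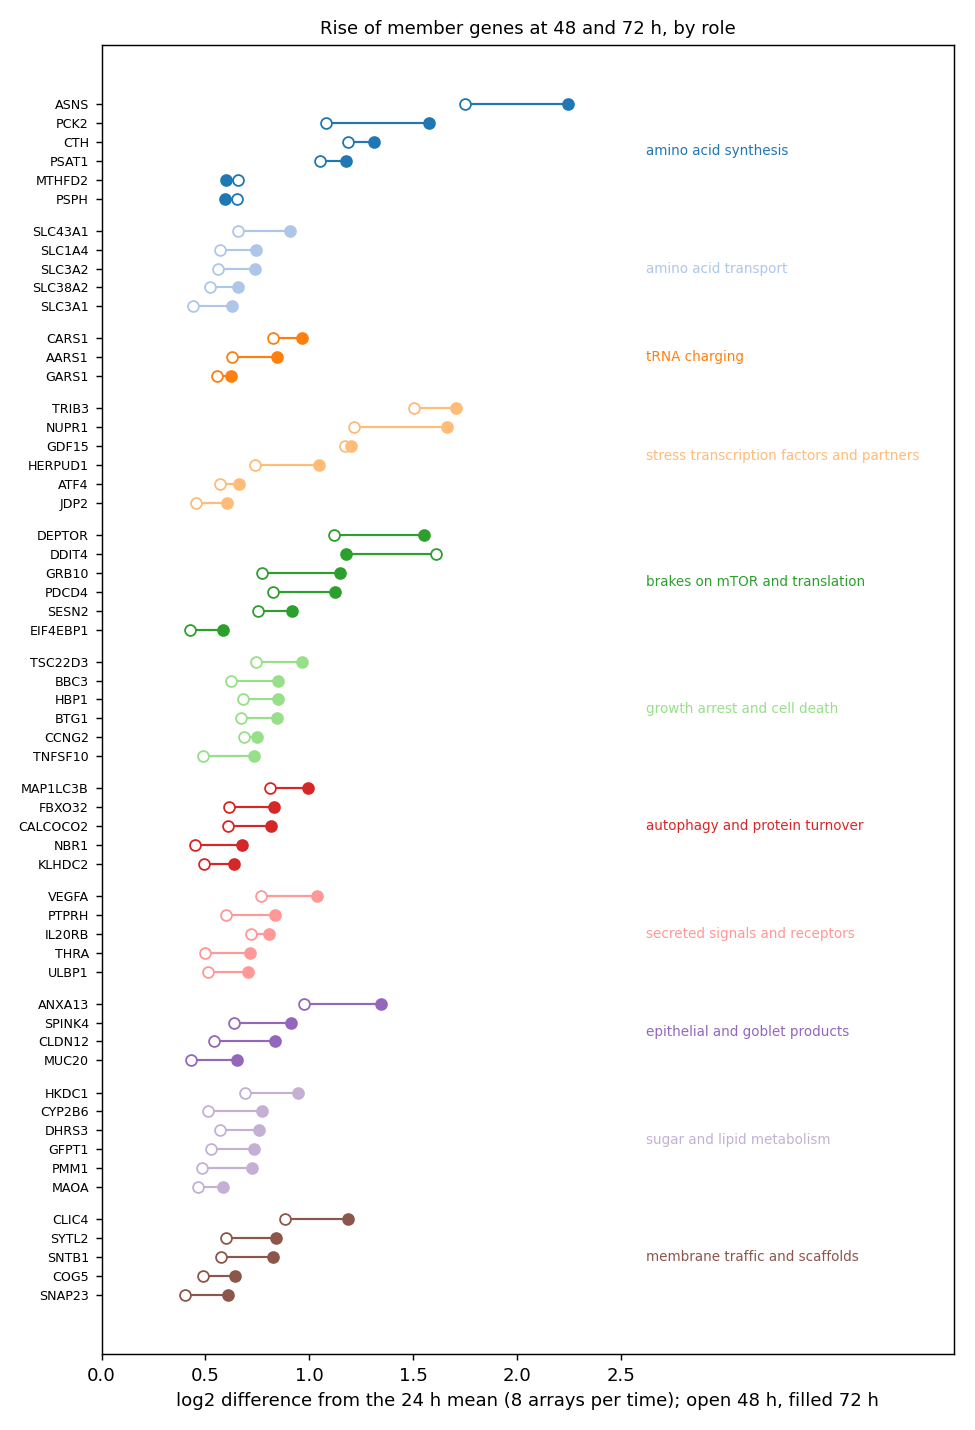
Log2 difference from the 24 h mean over 8 arrays (horizontal axis) at 48 h (open circles) and 72 h (filled circles) for 57 member genes with a role, 1 probe set per gene, the one with the largest rise. ASNS reaches 2.24 at 72 h, and for DDIT4, MTHFD2 and PSPH the open circle lies beyond the filled one.

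The rule's limits cut through some genes. Just inside the limit on the share were CLDN12 (0.651), CEP57 (0.655) and LXN (0.657), and just outside it CCNB1IP1 (0.649), another YPEL5 probe set (0.641) and another TNFSF10 probe set (0.641). Just inside the limit on the rise were MAOA, SNAP23 and EIF4EBP1 (each 0.59), and just outside it probe sets of SLC3A2 (0.58), VEGFA (0.57) and SLC7A11 (0.57). SLC7A11, the cystine importer that pairs with SLC3A2, had a share of 1.17. EGR1, an immediate early transcription factor, passed the limits on the mean rise and share with 3 probe sets but had differences of -0.07 to -0.16 in set 1 and of 1.36 to 1.53 in set 2. A further CCNG2 probe set had a rise of 0.21 in set 2. The member genes had 121 other probe sets on the array, of which 105 had a rise above 0, with a median of 0.33, and 32 had a mean level under 7.

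The replicate sets had like median rises but different median shares. The median rise was 0.79 in set 1 and 0.80 in set 2. For single members the rise in set 2 minus that in set 1 ran from -0.83 for CCNG2 to 1.04 for ANXA13, given without a test because the rule used both rises. The median share reached by 48 h was 0.878 in set 1 and 0.671 in set 2. The share was higher in set 1 for 118 of the 133 members (88.7%), against 94.6% of the later probe sets and 59.6% of all. Over all probe sets the same ratio was taken whether or not they rose, so the 59.6% is not a like baseline. In set 1, 132 members were at or past a share of 0.65, in set 2 73, and 72 were past it in both. The later probe sets had medians of 0.655 and 0.313. The shares are also given array by array, with 1 array per treatment and set and no test. Over members, the median share was 0.707 and 0.651 in the VEGF vehicle and PDGF vehicle arrays of set 1, and 0.666 and 0.627 in those of set 2. It was 1.16 and 0.947 in the VEGF and PDGF arrays of set 1, against 0.594 and 0.767 in set 2. The SD over the 4 arrays was 0.234 in set 1 and 0.0751 in set 2.

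**Figure D3:**
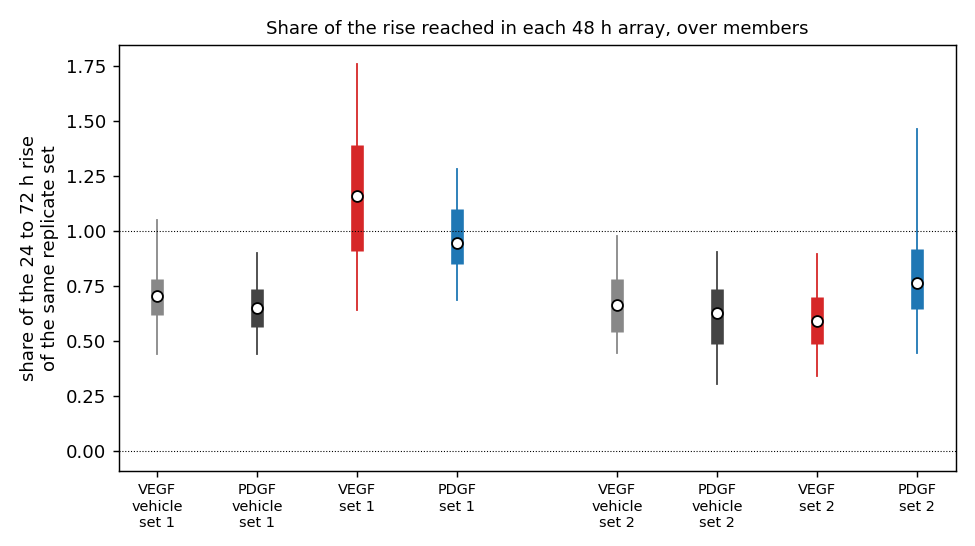
Share of the 24 to 72 h rise of the same replicate set (vertical axis) reached in each of the 8 arrays of 48 h (horizontal axis), over 133 probe sets; circles are medians, thick bars join the quartiles and thin lines the 5th to 95th percentiles. The medians are 0.651 to 0.707 in the vehicle arrays of set 1, 0.947 and 1.16 in its treated arrays and 0.594 to 0.767 in set 2.

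The change from 24 to 48 h was tested between the sets with limma over all probe sets. The rule did not use this difference itself, but it used the same arrays and the rise within each set. Of the members, 18 passed an adjusted p of 0.05, where 4.87% of all probe sets did. The median difference, set 2 minus set 1, was -0.14 over members, and 25 of 133 were above 0. Over all probe sets 2401 were called. Without the VEGF groups of 48 h the count was 12 (1389 of all) and the median -0.03. It was 9 without the VEGF vehicle groups of 24 h (1574 of all) and 11 with arrays centred on their medians (1735 of all).

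DDIT4 had the largest difference, 1.35 (SE 0.25, adjusted p = 0.00329), with the larger change in set 2. With trend and robust settings of eBayes its call was lost (adjusted p = 0.0790). DHRS3 went the other way by -0.44 (SE 0.07, adjusted p = 0.000709): its 48 h arrays were at 8.06 to 8.24 in set 1 and 7.78 to 7.90 in set 2, from overlapping levels at 24 h. PCK2 differed by -0.59 (adjusted p = 0.00205) for 11728867_a_at and by -0.50 (adjusted p = 0.0320) for 11719089_a_at. YPEL5 differed by -0.48 (adjusted p = 0.00298), SYTL2, an exocytosis effector, by -0.46 (adjusted p = 0.00448) and HBP1 by -0.42 (adjusted p = 0.00795). For YPEL5, SYTL2 and HBP1 set 2 had the higher mean at 24 h. CLIC4, an intracellular chloride channel protein, differed by -0.42 (adjusted p = 0.0405). PCK2 11719089_a_at and CLIC4 are uncertain calls. Both lost the call with centred arrays, with the RNA integrity number as a covariate and with trend and robust settings of eBayes. PCK2 11719089_a_at also lost it with array weights. In these settings the adjusted p was 0.0569 to 0.152 for PCK2 11719089_a_at and 0.0816 to 0.0851 for CLIC4 (limma). Both calls were also lost in the fits without the 48 h VEGF groups or the 24 h VEGF vehicle groups. ASNS (-0.15, adjusted p = 0.789), GDF15 (-0.33, adjusted p = 0.576) and VEGFA (-0.25, adjusted p = 0.463) did not pass.

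From 48 to 72 h, 21 members passed, where 7.58% of all probe sets did, with a median difference of 0.17 and 113 of 133 above 0. ANXA13 differed by 0.62 (SE 0.10, adjusted p = 0.000418) for 11741559_a_at and MUC20 by 0.47 (SE 0.07, adjusted p = 0.000180), both with the larger change in set 2. DDIT4 differed by -1.43 (SE 0.25, adjusted p = 0.000851) and CCNG2 by -0.52 (SE 0.09, adjusted p = 0.000864), both with the lower change in set 2. These differences share the 48 h arrays with those from 24 to 48 h. The rule also limits the 24 to 72 h rise in each set, so the tests of both changes are not independent results. PIP5K1B, a phosphoinositide kinase, had the smallest adjusted p, 5.21e-05, at a difference of 0.64. Each set is 1 hybridisation day, so the tests measure spread between arrays within a day, and day and culture cannot be told apart.

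The study's question was what VEGF and PDGF change in HT29. No member passed the test in any of 11 comparisons of factor with vehicle or of the 2 responses, and neither did any other probe set (limma, 0% of 49293 called in each). At an unadjusted p under 0.05 the members counted 2, 2 and 0 for VEGF at 24, 48 and 72 h, where 1.53%, 1.65% and 3.05% of all probe sets passed. For PDGF they counted 0, 5 and 0, where 1.05%, 1.10% and 4.01% passed. Blocking on the replicate set left 0 adjusted calls, and unadjusted passes were 3, 19 and 0 for VEGF (2.54%, 3.84% and 4.02% of all) and 0, 35 and 3 for PDGF (1.32%, 1.88% and 6.68% of all). The 48 h mean that chose the members holds the factor arrays, so the members' passes at 48 h only describe. Averaged over times, 1 member passed unadjusted for each factor (1.92% and 1.36% of all), or 4 and 10 with the block (2.56% and 2.21% of all). The VEGF response minus the PDGF response had 0 members at an unadjusted p under 0.05, where 1.17% of all passed, and again 0 with the block (1.59% of all).

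At 48 h the members' median difference from vehicle was 0.15 for VEGF, with 103 of 133 higher, and 0.18 for PDGF, with 119 higher. Over all probe sets the medians were 0.00 for both. The rule asked for a high mean over all 48 h arrays, the factor arrays among them. The members' differences at 48 h are therefore not independent of their choice, and the median over all probe sets is no test of them. The sets differed for VEGF, a difference that was not tested. Within set 1 the median was 0.36 and 110 members were higher, and within set 2 it was -0.06 and 31 were higher. Without the VEGF array of set 1 the median was -0.13, with the VEGF array of set 2 set against the vehicles of both sets. The VEGF vehicle array of 48 h had a mean over members of 9.51 in set 1 and 9.35 in set 2. The value of -0.13 therefore mixes the factor with the difference between sets. For PDGF the medians were 0.27 in set 1, with 117 higher, and 0.14 in set 2, with 101 higher. The RNA integrity number of the 48 h VEGF array of set 1 was 9.4 and that of the other 48 h arrays 9.5 to 9.8. With that number and the block in the fit, the medians at 48 h were 0.14 for VEGF and 0.19 for PDGF.

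At 24 h VEGF had a median of 0.27 in set 1, with 131 of 133 higher, and of -0.06 in set 2, with 30 higher. The VEGF vehicle array of set 1 was the low one there. At 72 h the medians were -0.04 and -0.14 for VEGF and 0.05 and -0.02 for PDGF. The change from 24 to 48 h, treated minus vehicle, had a median of 0.10 over members, with 2 at an unadjusted p under 0.05 (1.31% of all). Without the 48 h VEGF array of set 1 that median was -0.03. The VEGF mean of 48 h then came from set 2 alone and the vehicle means from both sets, so factor and set are mixed there too. From 24 to 72 h, with all arrays, the median of treated minus vehicle was -0.09, with 0 members at an unadjusted p under 0.05 (2.81% of all). With the block these counts were 10 (3.0% of all) and 2 (4.34% of all).

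The members with the smallest unadjusted p for PDGF at 48 h were HERPUD1 and TSC22D3. TSC22D3 was at 9.54 and 9.60 in the PDGF arrays of 48 h and at 9.14 and 8.75 in their vehicles, a difference of 0.63 (SE 0.21). HERPUD1 11749257_a_at differed by 0.31 (SE 0.10). VEGFA 11725371_s_at differed by 0.56 (SE 0.26) for PDGF and by 0.34 (SE 0.26) for VEGF. SPINK4 lay on the other side, at 7.96 and 8.45 with PDGF against 8.57 and 8.55 in its vehicles (-0.35, SE 0.17). Each had an adjusted p of 1.00 (limma).

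**Figure D4:**
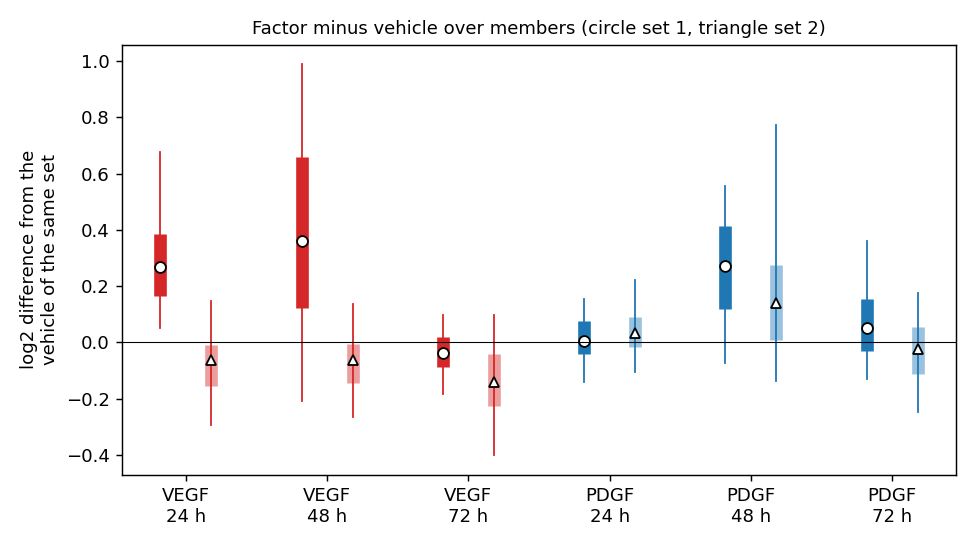
Log2 difference of each factor array from the vehicle array of its own replicate set and time (vertical axis), over 133 probe sets; circles (set 1) and triangles (set 2) are medians, thick bars join the quartiles and thin lines the 5th to 95th percentiles. For VEGF at 48 h the medians are 0.36 in set 1 and -0.06 in set 2, and for PDGF 0.27 and 0.14.

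Lists of genes place the members in their pathways. Each gene was read by its brightest probe set, the test was limma on the mean of the 4 treatments, and the rule used the same contrasts, so the counts only describe. Of 18132 genes, 0.425% had a member. At 48 h 5.32% of genes passed upward and 5.86% downward, and at 72 h 16.8% and 14.0%. Of 26 ATF4 and unfolded protein response genes, 9 had a member (ATF4, TRIB3, ASNS, SESN2, PSAT1, PSPH, MTHFD2, SLC3A2 and HERPUD1). In that list 15 genes passed upward and 1 downward at 48 h, with a median change of 0.45, and 17 and 4 at 72 h, with a median of 0.50.

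Genes without a member moved in both directions. PHGDH, the first enzyme of serine synthesis, changed by 1.00 at 48 h and 1.62 at 72 h (adjusted p = 1.58e-05). DDIT3, the factor CHOP, changed by 0.61 and 0.49 (adjusted p = 0.0121). Genes that passed downward at 72 h included SDF2L1, PDIA4 and HSP90B1, whose products work in protein folding in the endoplasmic reticulum. SDF2L1 changed by -0.76 at 72 h (adjusted p = 1.30e-05), PDIA4 by -0.29 (adjusted p = 0.00266) and HSP90B1 by -0.27 (adjusted p = 0.00458). HSPA5, the main chaperone of the endoplasmic reticulum, did not pass (-0.21, adjusted p = 0.327). XBP1 (0.63, adjusted p = 7.14e-05) and DNAJB9 (0.78, adjusted p = 1.80e-05), of the IRE1 arm, were higher at 72 h with lower shares than the rule asks.

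Of 22 FOXO and nutrient limitation targets, 5 had a member (CCNG2, FBXO32, TSC22D3, YPEL5 and HBP1). There 8 genes passed upward and 0 downward at 48 h and 14 and 0 at 72 h, with medians of 0.34 and 0.49. TXNIP, a glucose-responsive inhibitor of thioredoxin, changed by -0.03 at 48 h and by 1.07 at 72 h (adjusted p = 8.79e-05). Of 13 cell cycle inhibitor and p53 target genes, 2 had a member (GDF15 and BTG1). In that list 5 genes passed upward and 0 downward at 48 h, and 7 and 0 at 72 h. CDKN1C, an inhibitor of cyclin-dependent kinases, changed by 1.07 at 72 h (adjusted p = 1.16e-08), while the p53 target MDM2 did not pass (-0.10, adjusted p = 0.291). Of 32 hypoxia and glycolysis genes, 2 had a member (VEGFA and DDIT4), while 5 passed upward and 5 downward at 48 h.

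**Figure D5:**
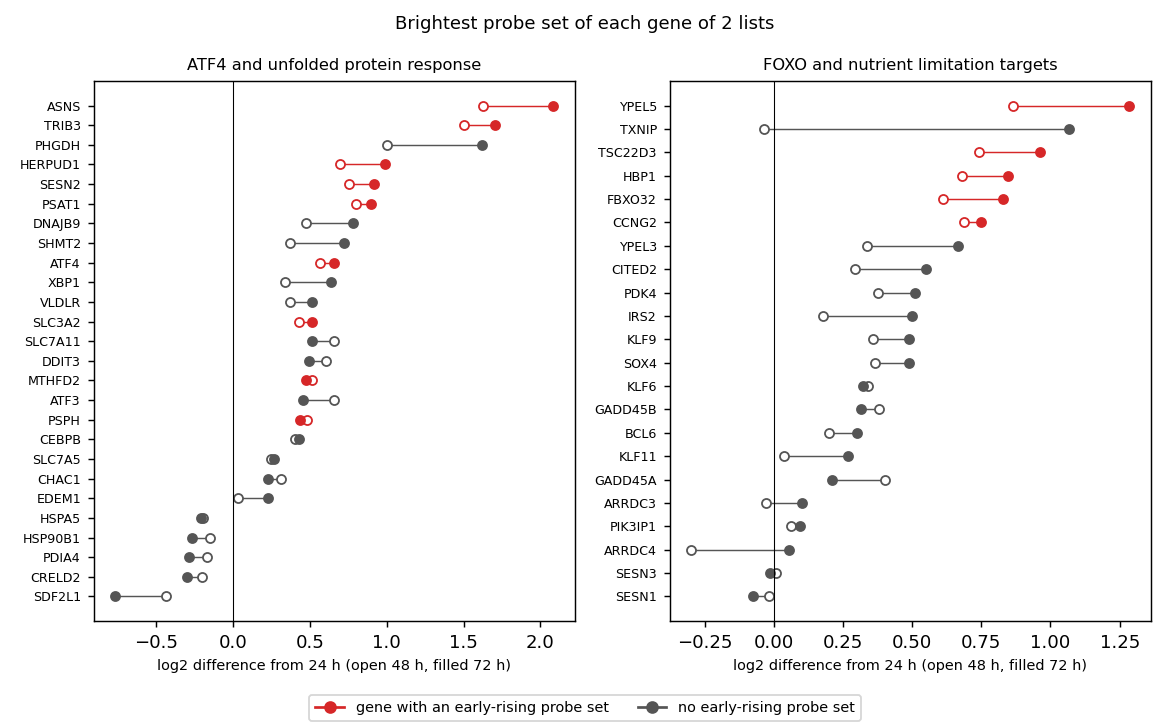
Log2 difference from the 24 h mean (horizontal axis) at 48 h (open circles) and 72 h (filled circles) for the brightest probe set of each gene of 2 lists; red marks genes with a member. ASNS and TRIB3 lead the ATF4 list and SDF2L1 lies lowest at -0.76, while TXNIP in the FOXO list moves from -0.03 to 1.07.

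Of 16 VEGF and PDGF ligands and receptors only VEGFA had a member. Its brightest probe set changed by 0.82 at 48 h and 1.01 at 72 h (adjusted p = 2.49e-05), VEGFB by 0.02 and 0.31 (adjusted p = 3.66e-05) and PDGFA by -0.06 and 0.17 (adjusted p = 0.0363). Of 24 mucin and goblet cell genes, MUC20 and SPINK4 had a member, and TFF3 (0.93, adjusted p = 6.35e-08) and SPINK1 (1.21, adjusted p = 0.000705) rose by 72 h with lower shares. MUC2, the gel-forming mucin of goblet cells, did not pass (0.05, adjusted p = 0.367). The lysosome and autophagy list had 1 gene with a member of 25 (MAP1LC3B), with 6 passing upward and 1 downward at 48 h and 15 and 1 at 72 h. No gene had a member among 26 cell cycle genes, of which 9 passed downward at 48 h and 21 at 72 h, or among 23 ribosome biogenesis genes, of which 14 and 21 did. No gene had a member either among 28 interferon genes, of which 21 passed upward and 0 downward at 72 h, or among 19 cholesterol genes, of which 1 passed upward and 15 downward. The lists of 22 junction genes (9 upward and 3 downward at 72 h), 21 NF-kB genes (6 and 2), 33 enterocyte genes (5 and 3), 17 Wnt genes (5 and 2), 24 immediate early genes (2 and 2) and 19 metallothionein and oxidative stress genes (1 and 7) had none. Members were also missing from 11 epithelial identity genes (3 and 1) and from 14 markers of fibroblast, endothelial and blood cells, 12 of which had a mean level under 7.5, the highest being LYZ at 13.78.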

How the data were processed

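RNA of HT29 cultures was measured on 24 Affymetrix arrays. The deposited values are log2 levels per probe set, which the submitters' processing notes credit to RMA (R 3.0.1) run by the authors. The 2 deposited tables held 49495 and 49395 entries with identical shared values, and 202 control probe sets were set aside. Genes were named from the platform's annotation and RefSeq tables (GRCh38.p14): 44988 probe sets had 1 gene symbol, 1832 several and 2473 none. Tests used limma 3.58.1 in R 4.3.3 on 12 group means, with Benjamini-Hochberg adjustment over 49293 probe sets and a threshold of 0.05. Replicate sets were compared in a fit of set by time. The members, gene lists, roles and motifs were chosen with earlier results of these data known.

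Genes were named by a rule: the 20 largest rises, up to 4 per list, the clearest differences between sets, the nearest shares and those beside each limit, while other members in the role paragraphs were named to account for every role. The labels do not state separate cultures for the replicates. The p-values therefore reflect spread between arrays, possibly technical, and the number of arrays limits precision. Replicate numbers mark hybridisation days, per the labels, and same-numbered groups deviated together (66 pairs, r from 0.257 to 0.80, above the 0.1 asked for), so they pair the arrays. The main fit of factor and time comparisons did not use this pairing. The spread between replicate sets thus entered its SEs and p-values, while fits with the block took it out. Alternatives covered the block, centring, quantile scaling, the dim-probe filter, the share limit, the eBayes settings and leaving out each array. For the time changes and the differences between sets, fits with the RNA integrity number were added after seeing the data. The fits were run on simulated data in which the replicate sets changed alike over time, apart from changes put in. The measured sets did not change alike, so the run does not measure how the factor comparisons fare in these data. In the run, a 1.25-fold change for VEGF at 24 h was recovered for 26% of the changed probe sets.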

Additional observations from a re-analysis of the deposited data

Results flagged for a closer look

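The change from 24 to 48 h differed between the replicate sets for 18 members (4.87% of all probe sets called), and that from 48 to 72 h for 21 members (7.58% of all called), by limma's test of the difference itself. Both counts share the 48 h arrays, and the rule used the rise in each set, so they are not independent results. From 24 to 48 h, set 2 minus set 1, DDIT4 differed by 1.35, a call lost with trend and robust settings of eBayes (adjusted p = 0.0790). The count of 18 fell without the 48 h VEGF groups, without the 24 h VEGF vehicle groups and with centred arrays, and the count over all probe sets fell too. Without the 48 h VEGF groups the median difference over members also moved close to no difference. The calls of CLIC4 and of PCK2 at -0.50 were each lost in several settings. The other named members differed in the opposite direction: PCK2 by -0.59 and -0.50 in its 2 probe sets, YPEL5 by -0.48, SYTL2 by -0.46, DHRS3 by -0.44, CLIC4 by -0.42 and HBP1 by -0.42. The part of the hybridisation day and of the culture in these differences cannot be told apart.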

How the results depend on the processing

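The number of members was 350 with a share limit of 0.5 and 36 with 0.8, and 107 to 148 when single arrays were left out. The vehicle arrays alone gave 110 (68 shared) and the treated arrays alone 145 (106 shared). The 24 to 48 h difference between sets was called for 11 members with centred arrays and for 9 to 27 when an array was left out, and the 48 to 72 h difference for 16 to 29; the cause was not tested. With the replicate block, which pairs arrays by hybridisation day, 133 members were called for 24 to 48 h, against 120 without it, and 64 for 48 to 72 h, against 24. Calls over all probe sets went from 4308 to 8596 and from 4526 to 8745, and the rule used these time changes. The factor comparisons gave 0 calls under every setting tried. Of 928 repeats of a named member's difference between sets, 881 kept their side of the threshold, 28 lost the call and 19 gained it, and of 960 repeats of a rise 3 gained it, all for DDIT4. In the fits between sets, leaving out either array of a group gave the same fit. The 928 repeats and the calls lost and gained count such a fit under each array. Members near an array's dim end are limited by signal over background.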
